A study of Mus musculus with 15 samples.

Results

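The early response of GM4 dendritic cells (DC) was the change between 0 and 6 h after stimulation. It was read from the 3 arrays of GM4 DC at 6 h against the 3 arrays at 0 h, on log2(signal + 16), across all 12422 probe sets that were not array controls. These 6 arrays were part of a series of 15. All cells were grown for 4 days from bone marrow of 6 to 8 week old female NOD (non-obese diabetic) mice, which become diabetic through autoimmunity. GM4 DC were grown with 1 ng/ml of the growth factor GM-CSF and 1 ng/ml of interleukin-4 and purified on 14.5% metrizamide, and GM DC were grown with 1 ng/ml GM-CSF alone and purified on 16% metrizamide. In the title of the series GM4 DC are the therapeutic cells and GM DC the ones that are not. Both were then cultured with 10 µg/ml lipopolysaccharide (LPS) and 50 ng/ml interferon-γ and harvested at 0, 6 and 20 h. The protocol of GM4 DC 0 h replicate 1 names both factors but gives no dose or gradient, and the source names of all 0 h GM4 samples mention the stimuli although their titles say 0 h. Beside the 6 arrays, the comparisons below used 3 GM DC arrays at 0 h, 2 at 6 h and 2 GM4 DC arrays at 20 h. The labels call the replicates biological and do not say how many mice were pooled in each.

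Dendritic cells take up antigen, present it to T cells and carry information on the microbial context through costimulatory molecules and cytokines. LPS is a wall component of Gram-negative bacteria that is recognised by Tlr4 with its co-receptor Cd14, and the receptor signals through the adaptors Myd88 and Trif to NF-kappaB, AP-1 and interferon regulatory factors. Type I interferons made in this response, and the added interferon-γ, act through JAK kinases and STAT factors on interferon-stimulated genes, while interleukin-4 acts through Stat6.

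The 6 arrays had like signal levels. Their median probe set signal ran from 40.5 to 46.5, between 32.3% and 35.3% of probe sets had a signal under 16, and the lowest correlation of log2 values between replicates was 0.98 at 0 h and 0.975 at 6 h. For the Gapdh control, signal at the 3′ end over that at the 5′ end, which rises with RNA degradation, came to 1.07, 1.07 and 1.31 on the 0 h arrays and 1.03, 1.12 and 1.48 on the 6 h arrays. Weights that limma estimated from the scatter of each array ran from 0.62 for GM4 6 h replicate 1 to 3.41 for GM4 6 h replicate 2, and a fit that used them called 3000 probe sets where the fit without them called 1970. The number of arrays limits the precision. Of the genes that define DC, Itgax (CD11c) had signals of 1255, 792 and 1032 at 0 h, and class II genes and their chaperone were bright, with H2-Aa at 5439, 3549 and 4435 and Cd74 at 7236, 5780 and 6674. Markers of neutrophils, which also grow from marrow in GM-CSF, were present as well, with S100a9 at 2245, 3356 and 2294 and Ngp, a granule protein, at 1900, 2794 and 1444 at 0 h. Signals summed over the 18 measured neutrophil genes were 15866 to 21324 at 0 h and 13533 to 18162 at 6 h, and those over the 18 DC genes were 28606 to 38714 and 29738 to 40259. Both ranges overlapped between the times. No member of these lists was listed at 0.

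By 6 h, chemokines, inflammatory cytokines and interferon-stimulated genes had risen, with changes of up to 119-fold, and genes of lipid synthesis, cell division and the interleukin-4 response were among those that fell. In limma, 1970 of 12422 probe sets (15.9%) passed an adjusted p of 0.05, with 725 higher (5.84%) and 1245 lower (10.0%). Without GM4 0 h replicate 1 the number lower was 826. With each gene represented by its brightest probe set, 1574 of 8251 genes (19.1%) passed, 558 higher (6.76%) and 1016 lower (12.3%), and the median change over all genes was -0.02 (quartiles -0.32 and 0.20). Increases were fewer but larger. Of the genes that rose, 244 changed by over 2-fold, 69 by over 4-fold and 32 by over 8-fold, against 286, 15 and 2 of those that fell. Folds are on the log2(signal + 16) scale, which understates the change of dim genes, and 64 of the 558 genes that rose averaged under a signal of 16 at 0 h.

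**Figure D1:**
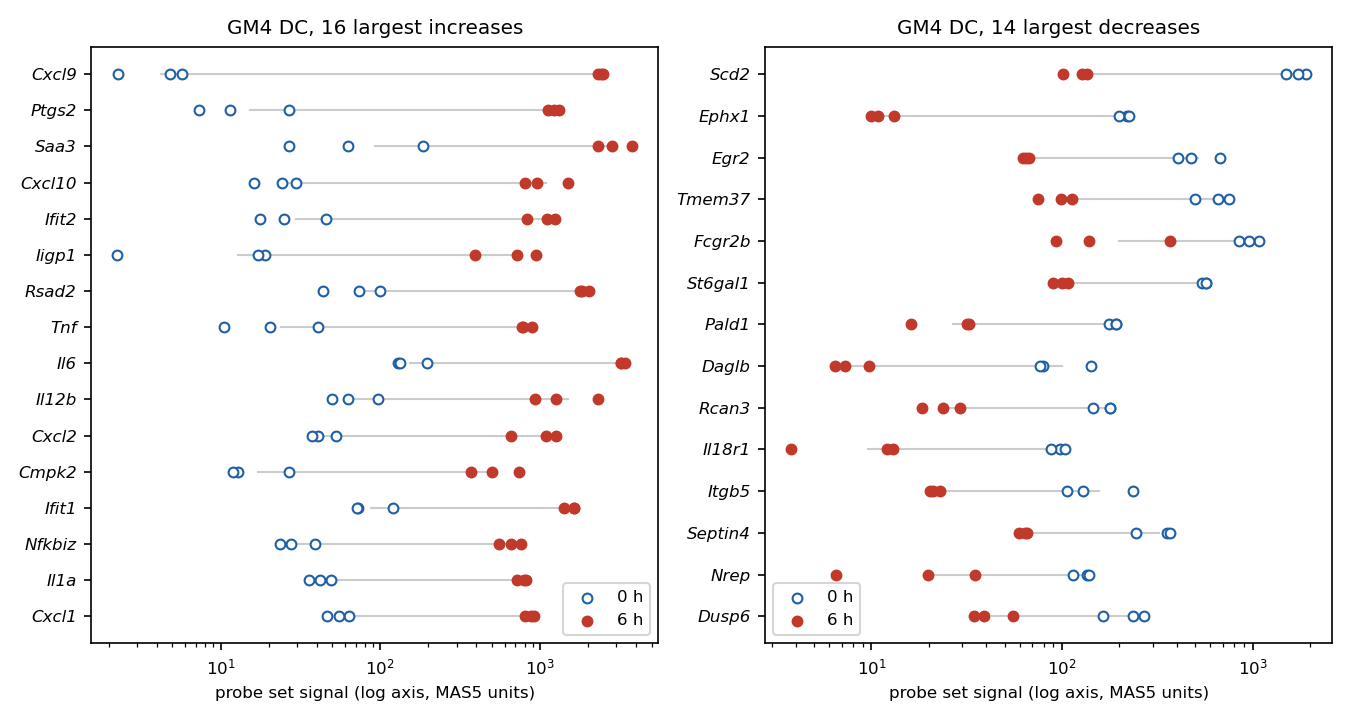
Signals of the 30 named genes in the 3 GM4 DC arrays at 0 h (open circles) and the 3 at 6 h (filled circles), on a log axis, with a grey line between the group means. The genes were chosen so that their 0 h and 6 h arrays do not overlap. Cxcl9 lies between 2.27 and 5.73 at 0 h and between 2307 and 2479 at 6 h.

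The 16 largest increases and 14 largest decreases among called genes whose arrays did not overlap, which was so for 15.5% of all genes upwards and 22.7% downwards, are on the plot of signals by array. The plot of list members gives all 29 pathway lists, and counts below are set against the 6.76% of all genes called higher and the 12.3% called lower. The calls of all 30 genes were kept under each of the 16 alternatives. Averaged over all probe sets of the gene, which gives a value and no test, the change was smaller by over 1.5 times for Cmpk2 (2.59), Nfkbiz (2.32), St6gal1 (-1.53), Tmem37 (-1.20), Septin4 (-1.20), Pald1 (-1.15), Itgb5 (-1.03) and Dusp6 (-0.92), and, of genes named further on, for Egr1 (-0.48), Tap1 (0.71), Csf1r (-0.75), Klf4 (-0.70) and Bcl2l1 (0.78). Standard errors after ± are limma's, with n = 3 arrays at each time. List medians are descriptions. Every one of 0.21 or less in size changed sign or moved by over 1.5 times when some array was left out, so no direction is read from it.

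Chemokines that attract T cells held the largest change. Cxcl9, a ligand of Cxcr3 on activated T cells, had signals of 5.73, 4.8 and 2.27 at 0 h and 2479, 2397 and 2307 at 6 h. It was 119-fold higher (log2 6.90 ± 0.13, limma adjusted p = 3.44e-13). Cxcl10, another Cxcr3 ligand, had signals of 24.3, 29.7 and 16.3 at 0 h and 802, 1486 and 963 at 6 h, a rise of 4.77 ± 0.25. The 0 h signals of Cxcl9 were all under 16, and every 6 h array of both genes was far above every 0 h array. These were the 2 of 8 measured genes of the list that rose, and its median was 0.07. Ccl5, which attracts T cells and monocytes and was chosen after its values were seen, did not pass in GM4 DC. Its signals were already 5384, 4285 and 6273 at 0 h and were 6226, 4684 and 5834 at 6 h (0.08 ± 0.36, limma adjusted p = 0.932), so the groups overlapped.

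The promoters of these and other genes are shown. They were picked for their large increases, so that they rose together was fixed by the choice. In their lists Il6, Rsad2, Gbp2b and Tnfaip3 came next after Tnf, Ifit2, Iigp1 and Nfkbiz by size of increase. No promoter was available for Iigp1 and Nfkbiz. The windows of Tnf and Ifit2 were searched and are described below, but their sequences are not printed. Each sequence holds the 250 bases before the annotated start, on the gene's strand, from RefSeq's GRCm38.p6 table. Capitals mark matches, on either strand, to the interferon-stimulated response element (ISRE, GAAANNGAAA), the gamma-activated site (GAS, TTCNNNGAA), the kappaB consensus or the AP-1 site (TGANTCA).
Cxcl9, chr5:92328080-92328329, minus strand: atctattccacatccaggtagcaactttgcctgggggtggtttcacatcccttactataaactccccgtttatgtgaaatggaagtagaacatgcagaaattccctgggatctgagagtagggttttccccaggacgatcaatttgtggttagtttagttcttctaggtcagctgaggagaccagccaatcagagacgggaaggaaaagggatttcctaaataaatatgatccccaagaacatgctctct
Cxcl10, chr5:92348890-92349139, minus strand: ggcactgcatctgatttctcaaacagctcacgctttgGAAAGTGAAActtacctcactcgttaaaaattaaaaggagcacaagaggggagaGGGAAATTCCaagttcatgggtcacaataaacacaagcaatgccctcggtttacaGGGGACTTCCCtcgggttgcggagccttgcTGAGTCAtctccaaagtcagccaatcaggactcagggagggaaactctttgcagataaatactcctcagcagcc
Il6, chr5:30012864-30013113, plus strand: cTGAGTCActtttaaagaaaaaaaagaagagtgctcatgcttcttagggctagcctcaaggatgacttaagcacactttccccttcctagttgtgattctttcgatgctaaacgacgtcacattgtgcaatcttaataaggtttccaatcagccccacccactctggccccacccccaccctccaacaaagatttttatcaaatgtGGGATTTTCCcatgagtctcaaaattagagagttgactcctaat
Rsad2, chr12:26456453-26456702, minus strand: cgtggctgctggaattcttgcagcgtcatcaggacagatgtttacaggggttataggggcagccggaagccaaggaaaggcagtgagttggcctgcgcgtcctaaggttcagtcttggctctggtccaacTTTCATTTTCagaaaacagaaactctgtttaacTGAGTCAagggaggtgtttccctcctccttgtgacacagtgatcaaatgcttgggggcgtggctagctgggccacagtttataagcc
Gbp2b, chr3:142594597-142594846, plus strand: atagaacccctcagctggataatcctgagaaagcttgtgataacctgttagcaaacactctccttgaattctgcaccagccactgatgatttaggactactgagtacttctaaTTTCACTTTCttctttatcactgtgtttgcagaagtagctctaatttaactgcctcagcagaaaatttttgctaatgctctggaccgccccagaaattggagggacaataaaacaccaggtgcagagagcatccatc
Tnfaip3, chr10:19015411-19015660, minus strand: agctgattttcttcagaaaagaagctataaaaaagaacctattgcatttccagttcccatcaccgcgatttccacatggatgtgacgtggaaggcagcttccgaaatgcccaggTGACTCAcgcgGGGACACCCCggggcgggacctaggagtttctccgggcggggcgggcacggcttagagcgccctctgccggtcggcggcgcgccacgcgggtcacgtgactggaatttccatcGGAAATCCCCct

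Counted back from the start, the Cxcl10 window held an ISRE match at -213, kappaB matches at -159, -104 and -103, which overlap in the last 2 cases, and an AP-1 match at -74. Il6 held kappaB at -44 and AP-1 at -249, Rsad2 an ISRE at -120 and AP-1 at -87, Gbp2b an ISRE at -137, and Tnfaip3 kappaB at -125 and -12 and AP-1 at -136. The Cxcl9 window held none of the 4 sets of letters, and neither did that of Tnf, while that of Ifit2 held overlapping matches to GAS at -241 and kappaB at -247. Tnfaip3 and Ifit2 have 2 starts in the table, and the window of the start listed ahead was taken. Of 32851 promoters in the table, 2.98% held an ISRE match, 7.02% GAS, 7.25% kappaB and 6.75% AP-1. An ISRE match was held by 32 of 456 called-higher genes with a promoter (7.02%), by 13 of the 57 that rose over 4-fold (22.8%) and by 19 of 866 called-lower genes (2.19%). Among the 6572 measured genes with a promoter the ISRE share was 2.88%. The kappaB share was 10.3% of the genes called higher, 21.1% of those over 4-fold and 9.12% of those called lower, beside 8.64% of measured genes and 8.42% of those that did not pass. For GAS these shares were 7.02%, 14%, 5.77%, 6.16% and 6.15%, and for AP-1 they were 7.24%, 12.3%, 4.62%, 5.45% and 5.43%. A match describes letters, and no binding was measured.

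Cytokines that drive inflammation and polarise T cells rose in 10 of 14 measured genes and fell in 1, with a median of 1.54. Tnf, encoding tumour necrosis factor, had signals of 20.4, 41 and 10.5 at 0 h and 780, 773 and 887 at 6 h (4.44 ± 0.29, 21.8-fold). Il6, encoding a cytokine of the acute phase and of B and T cell help, had signals of 130, 196 and 133 at 0 h and 3232, 3210 and 3417 at 6 h (4.31 ± 0.26, 19.8-fold). The 3 arrays of each group lay close together for both genes, and the groups were far apart. Il12b encodes the shared chain of interleukin-12 and interleukin-23, which direct T cells towards interferon-γ and interleukin-17. Its signals were 49.6, 62.8 and 96.5 at 0 h and 2301, 1267 and 935 at 6 h (4.08 ± 0.31). The 6 h arrays spread over a wider range than for Tnf and Il6 and all lay above the 0 h arrays. The partner chain Il12a, chosen after its values were seen, rose from 4.54, 2.48 and 1.39 to 44.2, 30.4 and 20.2 (1.31 ± 0.21), a level that stayed dim. Il10, encoding an inhibitory cytokine, was also dim, with 2.67, 3.03 and 2.91 at 0 h and 58.5, 49.7 and 37.7 at 6 h (1.76 ± 0.19). Inhba, the activin A chain, rose by 2.17 ± 0.22. Tgfb1, encoding a cytokine that restrains T cells, was the member that fell, from 770, 605 and 600 to 260, 169 and 222 (-1.54 ± 0.19), with no overlap.

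The interleukin-1 genes rose together with their natural antagonist. Il1a had signals of 35.8, 41.9 and 48.9 at 0 h and 796, 820 and 722 at 6 h (3.78 ± 0.15). Il1b rose by 3.19 ± 0.25 and Il1rn, the receptor antagonist, by 2.66 ± 0.15, from 536, 636 and 634 to 4637, 3568 and 3554. Casp1, the protease that matures interleukin-1β and interleukin-18, rose by 1.08 ± 0.19. Il18r1, a chain of the interleukin-18 receptor, had signals of 97.1, 88 and 104 at 0 h and 13, 3.78 and 12 at 6 h (-2.15 ± 0.24), a fall to the level of dim probe sets on all 3 arrays. In the list of 10 measured genes 4 rose and 2 fell, and the median was 0.13. Beside Il18r1 the gene that fell was Il1r2, a decoy receptor. It lost its call in 9 alternatives, among them the replicate block (-0.69, limma adjusted p = 0.0505).

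Among chemokines for monocytes and neutrophils 7 of 14 rose and 1 fell, with a median of 0.79 (0.49 without GM4 0 h replicate 1). Cxcl2, a neutrophil attractant, had signals of 52.6, 40.8 and 37.4 at 0 h and 661, 1254 and 1082 at 6 h (4.05 ± 0.24). The related Cxcl1 rose by 3.64 ± 0.17, and the chemokines Ccl4 and Ccl3 by 3.57 ± 0.18 and 3.18 ± 0.25. Cxcl14 fell by 0.99 on the log2 scale. Of 16 chemoattractant receptors 6 fell, 2 rose and 8 did not pass, with a median of -0.16. One of the 6, Ccr6, the receptor of Ccl20 (-1.89), lost its call without GM4 0 h replicate 1 (-1.84), GM4 0 h replicate 2 (-1.69) or GM4 6 h replicate 2 (-1.48). Ccr2, the receptor that brings monocytes out of marrow, fell from 427, 290 and 170 to 78.7, 84.1 and 71.1 (-1.64 ± 0.24), and Cxcr4, which holds cells in marrow, by -1.28 ± 0.30. The formyl peptide receptor Fpr2 rose by 1.95 ± 0.28 and Ccrl2, which presents the ligand chemerin, by 1.57 ± 0.13. Ccr7, which guides DC to lymph nodes, was bright at both times, at 3095, 2671 and 3382 and then 3439, 3223 and 3632 (0.17 ± 0.23, limma adjusted p = 0.719), and its groups overlapped.

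Interferon-stimulated antiviral genes formed the list with the highest median. Of 20 measured genes 18 rose and 1 fell, with a median of 2.53. The member that fell, Ifi27, changed by -0.52 and did not pass in 6 alternatives. Ifit2, which blocks translation of viral RNA, had signals of 24.9, 46 and 17.7 at 0 h and 1249, 1106 and 834 at 6 h (4.60 ± 0.20, 24.2-fold). Rsad2, the antiviral enzyme viperin, had signals of 43.7, 100 and 74 at 0 h and 1775, 2024 and 1825 at 6 h (4.47 ± 0.31). Cmpk2, a nucleotide kinase, rose by 4.03 ± 0.27 and Ifit1 by 3.95 ± 0.21. The ubiquitin-like modifier Isg15, chosen after its values were seen, was already at 348, 631 and 400 at 0 h and reached 4601, 4187 and 5024. Ifnb1, encoding the type I interferon itself and chosen after its values were seen, was dim at both times, at 2.8, 12.4 and 15.2 and then 32.3, 37.7 and 31.1 (0.96 ± 0.28, limma adjusted p = 0.0324). It did not pass without GM4 0 h replicate 1 or 2 or any of the 3 GM4 6 h arrays (0.74 to 1.03).

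All 9 measured GTPases induced by interferon-γ rose, with a median of 2.31. These proteins gather on vacuoles that hold bacteria and parasites. Iigp1 had signals of 2.25, 19 and 17.2 at 0 h and 941, 722 and 391 at 6 h (4.58 ± 0.29, 23.8-fold). Gbp2b had signals of 15.2, 2.6 and 1.82 at 0 h and 252, 138 and 89 at 6 h (2.90 ± 0.32), and Igtp rose by 2.64 ± 0.18. The dimmest 6 h array of each was far above its brightest 0 h array. Members of this family are alike in sequence, and cross-hybridisation between them was not tested. Among IRF and STAT factors 5 of 13 rose and 0 fell, with a median of 0.50 (0.26 with GM4 6 h replicate 1 left out, 0.32 with GM4 0 h replicate 2 left out), led by Irf7, the amplifier of type I interferon (2.71 ± 0.18), and Irf1, which acts downstream of interferon-γ (1.90 ± 0.12). Genes of class I presentation rose in 5 of 13, by less, with a median of 0.40. The peptide transporter gene Tap1 went from 923, 935 and 923 to 1955, 1889 and 2193 (1.10 ± 0.16). In contrast, 1 of 14 class II genes fell, Ifi30, a thiol reductase of the antigen-processing compartment (-1.45 ± 0.23), and the other 13 did not pass. H2-Aa was at 4665, 3072 and 3749 at 6 h (-0.22 ± 0.22), and the groups overlapped.

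**Figure D2:**
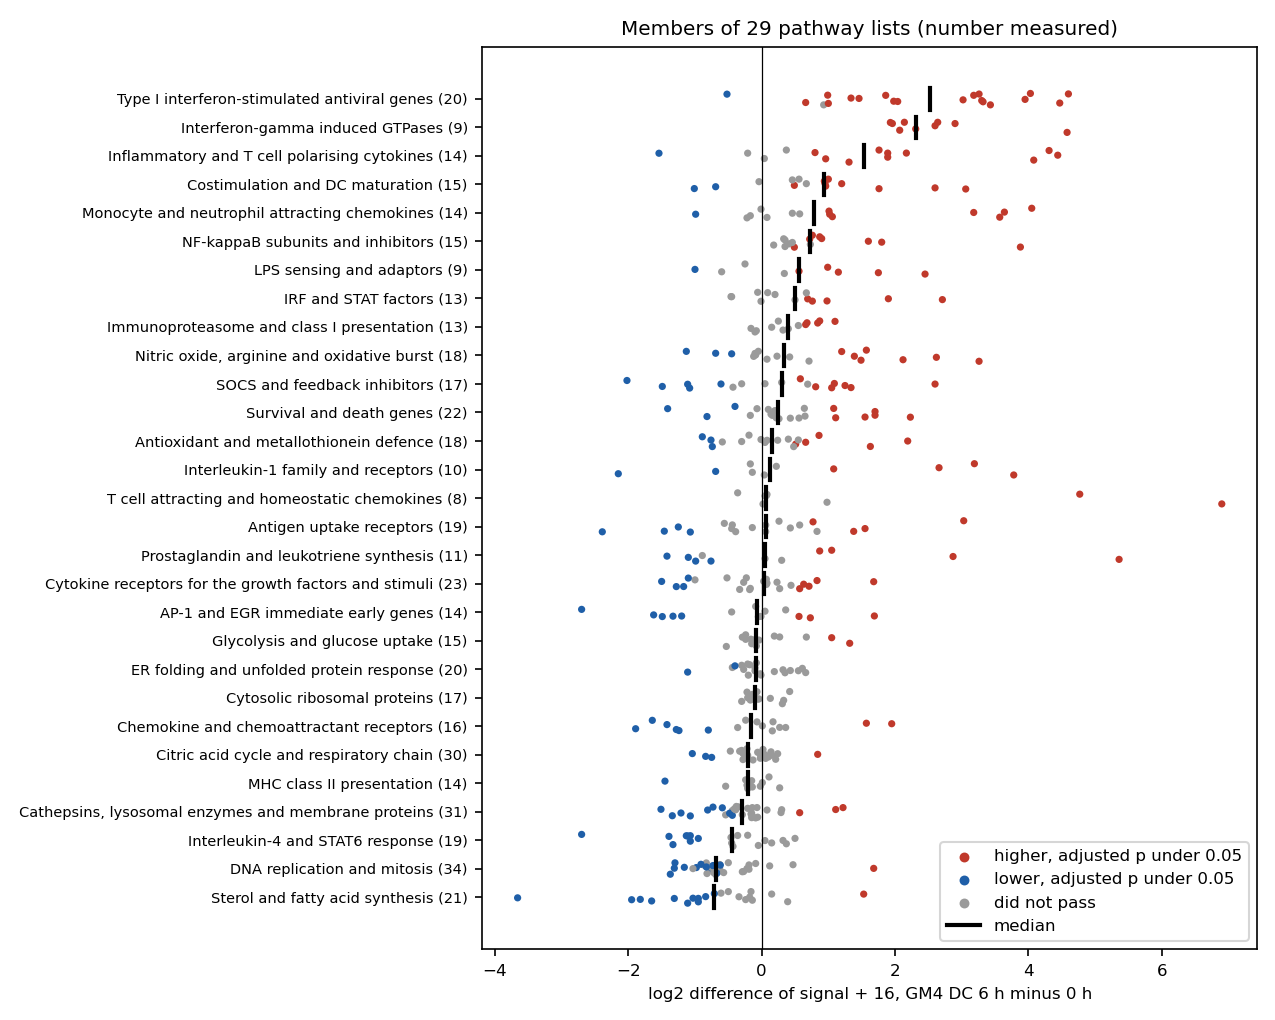
Change of each measured member of 29 pathway lists between 0 and 6 h in GM4 DC, as the log2 difference of signal + 16, with 1 point a gene and a black bar at the list's median. Red and blue points passed an adjusted p of 0.05; antiviral genes (median 2.53) lie highest, and sterol and fatty acid synthesis (median -0.71) lowest.

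Receptors and adaptors of the stimuli moved in both directions. Tlr4 is not analysed here. Cd14 had signals of 825, 950 and 876 at 0 h and 3792, 2477 and 2882 at 6 h (1.75 ± 0.17, limma adjusted p = 7.77e-06), with no overlap. The adaptor Myd88 rose by 1.15 ± 0.15 and the kinase Irak1 fell, from 329, 282 and 303 to 131, 155 and 147 (-1.0 ± 0.15). In this list of 9 measured genes 5 rose and 1 fell, with a median of 0.56. Ifngr1, the ligand-binding chain of the interferon-γ receptor, fell from 158, 203 and 130 to 65, 72.2 and 63.2 (-1.10 ± 0.17, limma adjusted p = 0.000406), while Ifngr2 did not pass (-0.18 ± 0.13). The receptor chains for the factors in the culture medium did not pass either: Il4ra was at 558, 440 and 813 and then 903, 529 and 497, and Csf2ra at 669, 260 and 301 and then 456, 278 and 251. Both overlapped, and Stat6 differed by 0.09 ± 0.18. Csf1r, the receptor of macrophage growth factor, fell from 855, 594 and 723 to 241, 285 and 210 (-1.50 ± 0.20). Over the 23 measured cytokine receptors and kinases 5 rose, 4 fell and the median was 0.03.

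Feedback regulators of NF-kappaB were among the genes that rose, and those of JAK signalling moved in both directions. Nfkbiz, an inducible nuclear cofactor needed for Il6, had signals of 27.5, 23.4 and 39 at 0 h and 760, 662 and 556 at 6 h (3.88 ± 0.19, 14.7-fold). Tnfaip3, the deubiquitinase A20, rose by 1.80 ± 0.30. Nfkbia, the inhibitor IκBα, was bright at 0 h, at 2464, 2294 and 2969, and reached 4530, 3789 and 4775 (0.76 ± 0.16). In the list 8 of 15 rose and 0 fell, with a median of 0.72 (0.46 without GM4 6 h replicate 1). Socs3, which blocks the interleukin-6 receptor, had signals of 96.7, 101 and 110 at 0 h and 1505, 554 and 406 at 6 h (2.60 ± 0.32), where replicate 1 was well above the others. Socs1, which blocks JAK kinases, had signals of 696, 727 and 646 at 0 h and 1894, 1239 and 1291 at 6 h (1.05 ± 0.20). Cish, another gene of the SOCS family, fell (-1.38 to -0.93 over the alternatives). The phosphatase genes for MAP kinases diverged, since Dusp1 rose by 1.09 ± 0.21 and Dusp6, which acts on ERK, fell from 165, 270 and 237 to 34.7, 55.2 and 38.8 (-2.02 ± 0.26). Of the 17 feedback genes 7 rose and 5 fell, with a median of 0.30 (0.10 with GM4 6 h replicate 1 left out, 0.45 with GM4 0 h replicate 3 left out). Beside Dusp6 and Cish, those that fell included Zfp36l2 and Gadd45a. Of the immediate early genes 3 of 14 rose and 5 fell: Egr2 went from 676, 407 and 474 to 67.2, 64.4 and 62.4 (-2.70 ± 0.19), Ier2 changed by -1.62 ± 0.15 and Egr1 by -1.49 ± 0.21, while Batf rose by 1.69 ± 0.32. Of the others that rose, Junb lost its call in 7 alternatives and Atf3 in 2.

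Costimulatory genes rose in 9 of 15 and fell in 2, with a median of 0.94. Cd40, which receives help from T cells, had signals of 170, 180 and 202 at 0 h and 1734, 1528 and 1693 at 6 h (3.06 ± 0.11, 8.35-fold). Tnfsf9, the 4-1BB ligand, rose by 2.60 ± 0.28 and Cd70, the ligand of CD27, by 1.76 ± 0.31. The CD28 ligands changed less. Cd80 went from 194, 192 and 119 to 554, 500 and 232 (1.20 ± 0.26). Cd86 went from 646, 972 and 776 to 2142, 1379 and 1217 (0.95 ± 0.24, limma adjusted p = 0.0144), and its call was lost when GM4 0 h replicate 1 (0.81) or GM4 6 h replicate 1 (0.71) was left out. The 6 h arrays of both genes lay above the 0 h arrays. Cd48, an adhesion ligand, fell by 0.69 on the log2 scale.

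Enzymes that make small inflammatory mediators held some of the largest changes. Ptgs2, the inducible cyclooxygenase COX-2, had signals of 11.4, 7.35 and 26.8 at 0 h and 1230, 1314 and 1117 at 6 h (5.36 ± 0.29, 40.9-fold). Ptges, which makes prostaglandin E2 from its product, rose from 5.53, 23.1 and 5.65 to 189, 190 and 152 (2.87 ± 0.28). Lta4h, an enzyme of the leukotriene branch, fell by 1.42 on the log2 scale, and the list held 4 genes that rose and 4 that fell of 11, with a median of 0.05. Nos2, the inducible nitric oxide synthase, had signals of 5.82, 10.7 and 16.5 at 0 h and 382, 234 and 151 at 6 h (3.26 ± 0.28). Gch1, which supplies its cofactor, rose by 2.12 ± 0.19, and Arg1, which competes for arginine and is an interleukin-4 target, fell from 1669, 2122 and 2188 to 850, 1157 and 733 (-1.13 ± 0.17). In the nitric oxide and burst list 7 of 18 rose and 3 fell, with a median of 0.33. Saa3, an acute phase protein outside these lists, had signals of 27, 63 and 186 at 0 h and 3783, 2300 and 2832 at 6 h (5.05 ± 0.42, 33.2-fold). Its 0 h arrays spread over a wide range and stayed below all 6 h arrays. Sod2, the mitochondrial superoxide dismutase, rose by 2.19 ± 0.15 and the metallothionein Mt2 by 1.63 ± 0.24, in a list with 5 of 18 higher, 3 lower and a median of 0.16. Genes of survival and death rose in 6 of 22 and fell in 3, with a median of 0.24. Bcl2l1 and Cflar, which block the mitochondrial and the death receptor path, rose by 1.55 ± 0.15 and 1.70 ± 0.18. Casp4 and Tnfsf10, which act in cell death, rose too (1.82 to 2.41 and 0.81 to 2.80 over the alternatives). Casp6, Casp9 and Mcl1 fell, and Mcl1 lost its call in 7 alternatives.

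The largest fall was in lipid synthesis. Scd2, a stearoyl-CoA desaturase, had signals of 1499, 1913 and 1740 at 0 h and 101, 128 and 135 at 6 h (-3.66 ± 0.23, limma adjusted p = 1.36e-07). Its relative Scd1 changed from 609, 637 and 785 to 178, 166 and 145 (-1.95 ± 0.27), and Fasn, fatty acid synthase, from 215, 203 and 128 to 33.8, 41.3 and 41.9 (-1.82 ± 0.35). The arrays of the 2 times were far apart for all 3 genes. Abca1, which exports cholesterol, fell by 1.65 on the log2 scale. The list of sterol and fatty acid synthesis also holds this exporter. Of its 21 measured genes 11 fell and 1 rose, with a median of -0.71. The riser was Ch25h, which makes the interferon-induced 25-hydroxycholesterol (1.53 ± 0.31), at 29.1, 77.7 and 63.4 and then 179, 231 and 152.

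Genes of DNA replication and mitosis fell in 12 of 34 and rose in 1, with a median of -0.69. Cdc20, an activator of the anaphase complex, had signals of 265, 245 and 146 at 0 h and 49.7, 86.6 and 86.5 at 6 h (-1.37 ± 0.27), the helicase subunit Mcm7 changed by -1.31 ± 0.28 and the nucleotide reductase Rrm2 by -1.30 ± 0.21. Ccnd2, a cyclin of early G1, rose (1.68 ± 0.23). In these bulk samples fewer cells of a type and less RNA per cell cannot be told apart. On the same arrays 3 of 18 neutrophil genes fell and 2 rose, with a median of -0.52 (-0.28 without GM4 0 h replicate 2). The 2 that rose were Lcn2, an iron-trapping protein of granules (1.49), and Fpr2 (1.95). Mmp9, a protease of neutrophil granules, changed from 70.5, 119 and 79.2 to 11.5, 24.8 and 27.4 (-1.50 ± 0.25) and lactoferrin, Ltf, by -1.24 ± 0.29, while S100a8 (-0.55 ± 0.20), S100a9 (-0.44 ± 0.24) and Ngp (-0.50 ± 0.26) did not pass. The part of these cells in the falls was not tested.

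Genes of the interleukin-4 and Stat6 response fell in 8 of 19 and rose in 0, with a median of -0.45 (-0.28 without GM4 0 h replicate 1). Beside Egr2 and Arg1 they included Klf4, a transcription factor of alternative activation, from 204, 204 and 141 to 59.2, 54.8 and 62.7 (-1.39 ± 0.18), and Myc, from 52.1, 62.2 and 27.7 to 8.41, 10.6 and 6.51 (-1.33 ± 0.21). The arrays of the 2 times did not overlap for these genes. In GM DC, grown without interleukin-4, the median of this list was -0.46, and Egr2 changed by -2.50 and Arg1 by -1.37. The difference between the cultures passed for 0 of its members in either direction. Antigen uptake receptors split, with 4 of 19 higher and 4 lower and a median of 0.06. Fcgr2b, the inhibitory Fc receptor, went from 1086, 849 and 961 to 369, 139 and 92.5 (-2.39 ± 0.38), with 6 h replicate 1 above the others, and the lectin Clec4a2 fell by 1.46 on the log2 scale. Marco, a scavenger receptor for bacteria, rose from 2.27, 4.48 and 8.87 to 85.6, 192 and 226 (3.03 ± 0.30), and Clec4e, the receptor Mincle, by 1.55 ± 0.21. Lysosomal genes fell in 9 of 31 and rose in 3, with a median of -0.29 (-0.14 without GM4 0 h replicate 3), led by β-glucuronidase, Gusb, from 754, 590 and 539 to 194, 251 and 184 (-1.51 ± 0.16).

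Other genes with the largest falls came from several functions. Ephx1, an epoxide hydrolase of detoxification, had signals of 219, 199 and 226 at 0 h and 10.8, 9.99 and 13.2 at 6 h (-3.08 ± 0.18, 8.45-fold lower). St6gal1, a sialyltransferase, went from 568, 546 and 571 to 107, 89.5 and 100 (-2.33 ± 0.14), and the integrin chain Itgb5 from 106, 129 and 235 to 22.8, 21.1 and 20.3 (-2.14 ± 0.28). The membrane protein Tmem37 changed by -2.54 ± 0.22, the phosphatase-like Pald1 by -2.27 ± 0.19 and the diacylglycerol lipase Daglb, which acts in endocannabinoid synthesis, by -2.23 ± 0.30. That the arrays of the 2 times did not overlap was a condition for naming these genes, so it adds no support. The calcineurin regulator Rcan3 changed by -2.21 ± 0.27, the cytoskeletal Septin4 by -2.09 ± 0.22 and Nrep by -2.07 ± 0.36. Several other lists had medians too small to read a direction from. Of cytosolic ribosomal proteins 0 of 17 passed (median -0.10). The citric acid cycle and respiratory chain had 1 of 30 higher and 3 lower (10.0%, beside 12.3% of all genes, median -0.21). Glycolysis had 2 of 15 higher (13.3%, beside 6.76% of all genes) and 0 lower (median -0.09). Folding in the endoplasmic reticulum had 0 of 20 higher and 2 lower (10.0%, median -0.09). In the last list Xbp1, a factor of the unfolded protein response, went from 1163, 1214 and 955 to 471, 526 and 517 (-1.11 ± 0.16).

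Among the genes that define cell types, Itgax fell from 1255, 792 and 1032 to 625, 424 and 494 (-0.97 ± 0.17), and Irf8, a DC transcription factor, rose from 1022, 1077 and 1726 to 2680, 2293 and 2396 (0.98 ± 0.21). In the DC list 2 of 18 rose and 3 fell, with a median of -0.00. Apart from Irf8 and Itgax these calls were not stable. Ly75, which rose, lost its call in 6 alternatives, and of those that fell Cd24a lost it in 6 and Itgae in 3. Monocyte and macrophage markers rose in 4 of 13 and fell in 3, with a median of -0.26 (-0.44 with GM4 0 h replicate 1 left out, -0.09 with GM4 0 h replicate 2 left out, -0.42 with GM4 6 h replicate 2 left out) and summed signals of 4979 to 5735 at 0 h and 6373 to 8344 at 6 h. The sums did not overlap, but they include Cd14, which alone went from 825, 950 and 876 to 3792, 2477 and 2882. A rise of the list as a whole is therefore not read from them. Csf1r, which fell, is on that list too, and the part of such cells in the response was not tested. Of 11 B cell markers 0 passed, and of 14 T and NK cell markers 1 rose, Cd8a, from 4.43, 3.14 and 3.59 to 10.7, 37.3 and 22.2 (0.94 ± 0.20). In the mast cell list of 15, Hdc, which makes histamine, rose from 7.86, 34 and 5.07 to 199, 229 and 191 (2.92 ± 0.26), and Kit, the stem cell factor receptor, fell from 111, 120 and 91.5 to 26.5, 39.7 and 40.9 (-1.26 ± 0.18). Of 9 erythroid markers 0 passed, of 13 stromal markers 1 rose, Vcam1 (1.34 ± 0.32), and of 5 measured plasmacytoid DC markers 2 rose and 1 fell.

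The same interval in GM DC addresses whether cells grown without interleukin-4 answered the stimuli alike. The cultures differed in the gradient too, and their arrays are separate samples. In GM DC 3012 probe sets (24.2%) and 2362 genes (28.6%) passed, with 9.31% of genes higher and 19.3% lower. Of the 558 genes that rose in GM4 DC, 413 also rose in GM DC (74.0%, and 53.8% of the 768 that rose there), and of the 1016 that fell, 781 also fell (76.9%, and 49.0% of 1594). In each direction 1 gene passed the other way. Across all 8251 genes, which are not independent replicates, Pearson's r between the 2 sets of changes was 0.808, as a description.

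**Figure D3:**
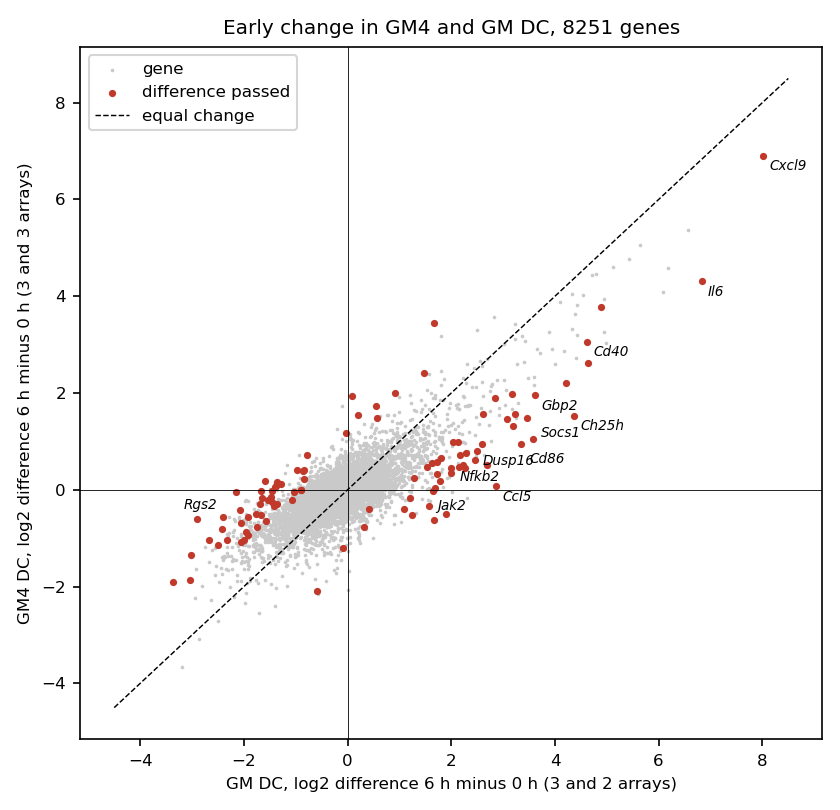
Log2 difference of signal + 16 between 6 and 0 h in GM DC (horizontal) and GM4 DC (vertical), with 1 point a gene and the dashed line at equal change. Red points are the 102 genes whose difference between the cultures passed; Il6 (4.31 in GM4 DC and 6.83 in GM DC), Cd40 and Socs1 lie under the line.

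The difference of the 2 responses passed for 119 probe sets (0.958%) and 102 of 8251 genes (1.24%), with 52 genes higher (0.63%) and 50 lower (0.606%) in GM4 minus GM. With the replicate number as a block it passed for 206 probe sets. Leaving out an array moved the count by over 1.5 times in 5 cases: leaving out GM 6 h replicate 1 gave 54, GM 6 h replicate 2 gave 298, GM 0 h replicate 2 gave 76, GM4 6 h replicate 2 gave 69 and GM4 6 h replicate 3 gave 77. On the GM arrays the Gapdh ratio of 3′ over 5′ came to 1.18, 1.71 and 2.46 before and 1.63 and 1.85 after stimulation, against 1.03 to 1.48 on the 6 GM4 arrays, and the mean log2 signal of the hybridisation controls was 9.1 to 10.3 against 8.51 to 9.03. With the 3′ to 5′ ratio as a covariate the calls of the genes named next were kept. The part of the hybridisation signal was not tested.

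Costimulatory genes, and some feedback genes, were among those that rose less in GM4 DC. In the feedback list 2 of 17 differences passed as lower in GM4 DC and 2 as higher. Cd40 started at 72.8, 68.5 and 77.6 in GM DC, below all GM4 arrays, and reached 2345 and 2009, above all GM4 arrays, so its rise of 4.62 in GM DC exceeded that of 3.06 in GM4 DC (difference -1.56 ± 0.17, limma adjusted p = 0.000828). Cd86 started at 92, 105 and 76.9 and reached 1211 and 944 (3.35 in GM DC, difference -2.40 ± 0.36, limma adjusted p = 0.00537). In GM4 DC Cd86 started higher, at 646, 972 and 776. At 6 h it was at 2142, 1379 and 1217 there, still above the GM arrays. In the costimulation list 4 of 15 differences passed, all lower in GM4 DC, the other 2 being Traf1 (-1.65 ± 0.30) and Marcksl1 (-1.53 ± 0.27), calls that were lost when GM 6 h replicate 1 was left out (-1.68 and -1.39). Socs1 started at 282, 275 and 174 and reached 3564 and 2539, a rise of 3.57 in GM DC against 1.05 in GM4 DC (difference -2.52 ± 0.29, limma adjusted p = 0.00141). Nfkb2, an NF-kappaB subunit of DC maturation, rose by 2.00 in GM DC, from 244, 227 and 326 to 1235 and 973, and went from 743, 653 and 860 to 986, 840 and 1046 in GM4 DC (0.35, difference -1.65 ± 0.22). In GM4 DC alone Nfkb2 and Marcksl1 did not pass (limma adjusted p = 0.151 and 0.103) and passed with the replicate number as a block (limma adjusted p = 0.0303 and 0.0386). The kinase Jak2, which carries interferon-γ and GM-CSF signals, started lower in GM DC, at 327, 247 and 371 against 1249, 1189 and 914, and ended at 949 and 953 against 1026, 906 and 727 (difference -1.90 ± 0.26). For all of these GM DC began below GM4 DC.

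The calls of Cd40, Cd86, Socs1, Nfkb2 and Jak2 were kept in each of 21 alternatives, as were those of Gbp2 (-1.66 ± 0.18), Usp18, an inhibitor of interferon signalling (-1.20 ± 0.20), the phosphatase Dusp16 (-1.67 ± 0.23), Ch25h (-2.84 ± 0.46), Car2, a carbonic anhydrase (-1.78 ± 0.28), and the G protein regulator Rgs2 (2.30 ± 0.27). Rgs2 started at 594, 514 and 673 in GM DC and 147, 158 and 174 in GM4 DC, fell by 2.91 in the former and changed by -0.61 in the latter, a call lost without any of the 6 GM4 arrays (-0.68 to -0.55), and ended at 46.4 and 88.2 against 93.3, 111 and 93.9. The call of Rgs2 in GM4 DC was also lost with quantile normalization (-0.48) and with median centring (-0.55). Il6 started higher in GM4 DC, at 130 to 196 against 29.2 to 38.9, and ended lower, at 3210 to 3417 against 6159 and 4918. The difference of its rises was -2.52 ± 0.39, a call lost when GM 6 h replicate 1 was left out (-2.36). Ccl5 rose by 2.86 ± 0.40 in GM DC, from 1296, 735 and 2939 to 12589 and 8475. Its difference of -2.78 ± 0.54 was likewise lost without any of 5 arrays, GM 6 h replicate 1, GM4 0 h replicates 1 and 3 and GM4 6 h replicates 2 and 3 (-2.82 to -2.49). It was lost as well with quantile normalization (-2.14) and with only the groups compared (-2.78). Dusp16, Gbp2, Usp18, Nfkb2, Jak2, Rgs2, Car2, Traf1 and Marcksl1 were chosen after their values were seen. For other genes with large early changes, such as Tnf (-0.27 ± 0.43), Rsad2 (-0.33 ± 0.46) and Scd2 (-0.46 ± 0.35), the difference did not pass.

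**Figure D4:**
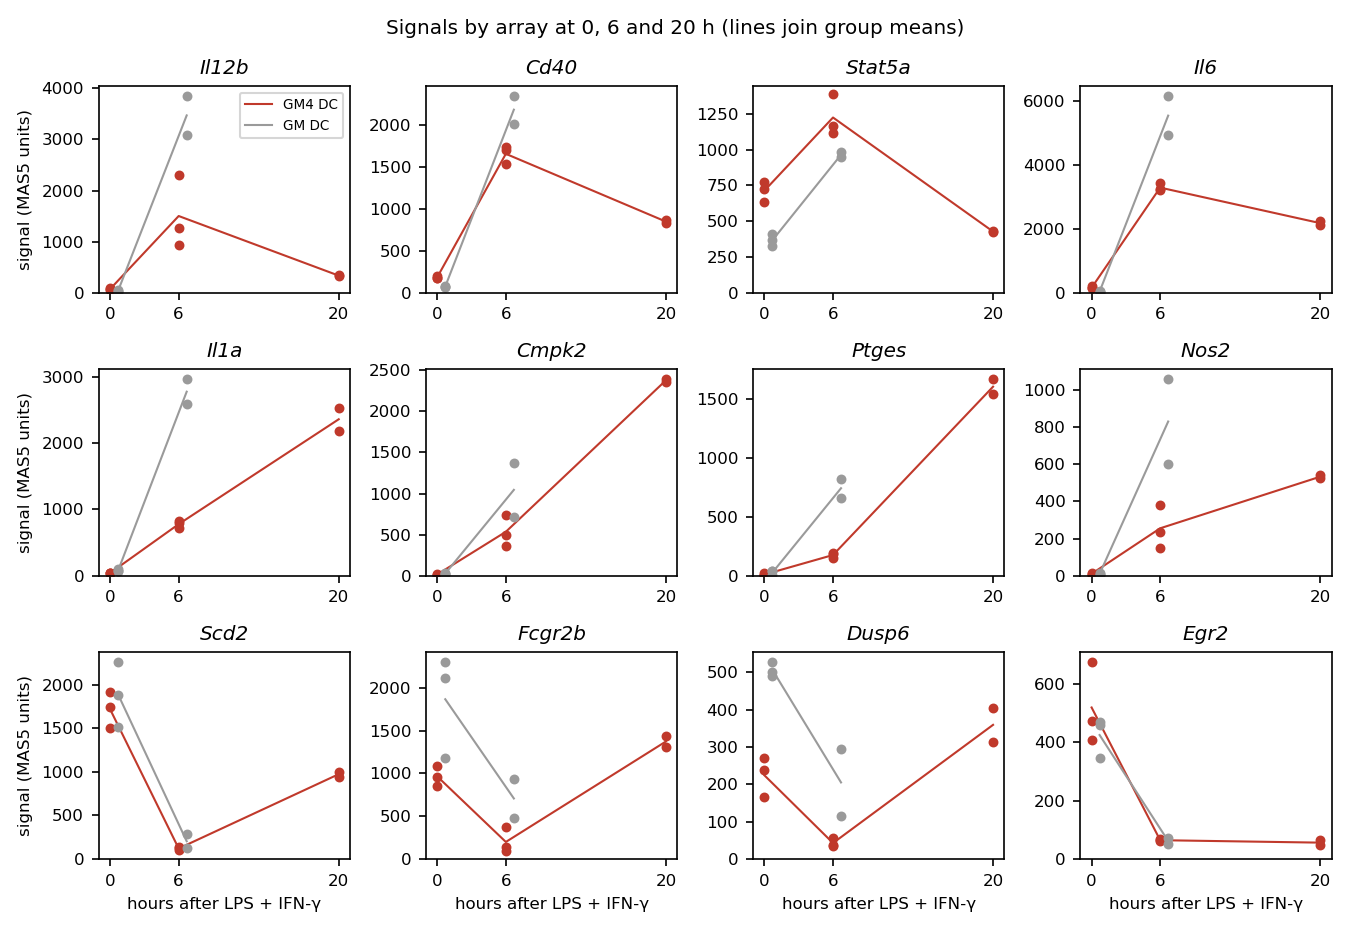
Signals of 12 genes by array against hours after LPS and interferon-γ, for GM4 DC at 0, 6 and 20 h (red) and GM DC at 0 and 6 h (grey, drawn slightly to the right), with lines through the group means. Il12b falls after 6 h in GM4 DC, Cmpk2 and Ptges go on rising, and Scd2, Fcgr2b and Dusp6 come back up, while Egr2 stays low.

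The 2 arrays at 20 h show the course of the early changes. Between 6 and 20 h 1452 probe sets (11.7%) and 1148 genes (13.9%) passed in GM4 DC, and leaving out GM4 6 h replicate 2 gave 951, GM4 20 h replicate 1 gave 856 and GM4 20 h replicate 2 gave 566. The contrast shares its 6 h arrays with the early response, and the values are set side by side only. Il12b came down to 349 and 318 (-2.02 ± 0.34, limma adjusted p = 0.00154), Cd40 to 828 and 863 (-0.95 ± 0.13), and Stat5a, which rose early by 0.76 ± 0.12, changed by -1.48. Il6, at 2228 and 2121, and Tnf, at 476 and 791, did not pass. Cmpk2 went up further to 2391 and 2359 (2.17 ± 0.30), Il1a to 2187 and 2532 (1.58 ± 0.17) and Ptges by 3.08. Scd2 came back to 1001 and 945 (2.86 ± 0.26) and Dusp6 rose to 313 and 405 (2.67 ± 0.29). Fcgr2b came back to 1440 and 1307 (2.90 ± 0.42), above the 0 h arrays. Its change from 0 to 20 h did not pass (0.51 ± 0.42, limma adjusted p = 0.47). Egr2, at 47.7 and 64.9, and Ephx1, at 13.9 and 13.2, did not pass. Ngp, among the neutrophil genes, changed by -5.22 over the same interval, and its part in other late changes was not tested.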

How the data were processed

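Per the labels, biotin-labelled RNA (ENZO kit) was hybridised to 1 Affymetrix mouse array per sample. The authors deposited 1 intensity per probe set, on a linear scale, from MAS5 per the submitters' processing notes. Its version was not given in the sources used here. On each array the 2% trimmed mean was 150.1, so the authors had scaled them, and a global change of RNA content would not be seen. Of 12488 probe sets 66 controls were left out. By the annotation of the platform, 10833 probe sets had 1 symbol (8251 genes), 396 had several and 1193 had none.

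Values were fitted as log2(signal + 16) with limma 3.58.1 in R 4.3.3: 6 group means over 15 arrays, an intensity trend, 9 residual degrees of freedom and Benjamini-Hochberg adjustment over 12422 probe sets per contrast. A gene was its brightest probe set with 1 symbol. Named were the 16 largest increases and 14 largest decreases among called genes with no overlap of arrays, up to 4 called members a list each way, defining genes of the stimuli, and genes said to be chosen after their values were seen; 1 unnamed transcript was passed over. The members and lists (38, with 572 of 718 genes measured) were chosen with earlier results of these data known. Same-numbered arrays of 0 and 6 h deviated together (correlations 0.193, 0.187 and 0.115), so the numbers may pair the samples. The main fit held no term for the replicate number, so its standard errors, p-values and counts do not use such a pairing. A fit with the replicate number as a block was run as an alternative and called 2288 probe sets at 6 h, against 1970. Promoters were searched with Python 3.11.15 in RefSeq's GRCm38.p6 table, which matched 6572 of the 8251 genes. The alternatives changed the offset (1 or 64), the scaling (quantiles or array medians), the model (no trend, array weights, a replicate block, a covariate for RNA quality, only the arrays of the groups compared) or the probe sets (those above the 40th percentile, or a gene's mean over all of its own), or left out each array in turn.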

Additional observations from a re-analysis of the deposited data

Results flagged for a closer look

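Each result here is the change from 0 to 6 h in GM4 DC minus that in GM DC, on the log2 scale, and was listed because limma's test of that difference passed an adjusted p of 0.05. Differences kept in all 21 alternatives were those of Socs1 (-2.52), Cd40 (-1.56), Cd86 (-2.40), Ch25h (-2.84), Usp18 (-1.20), Gbp2 (-1.66), Nfkb2 (-1.65), Jak2 (-1.90), Dusp16 (-1.67), Rgs2 (2.30) and Car2 (-1.78). Those lost only without GM 6 h replicate 1 were Il6 (-2.52), Nfkbia (-1.52), Txnrd1 (-1.16), Idh1 (1.64), Marcksl1 (-1.53) and Samhd1 (-1.04). Lost in more than 1 alternative were Cxcl9 (-1.12), Il1a (-1.11), Septin4 (-1.51), Irf1 (-0.94), Ccrl2 (-1.04), Acod1 (-2.02), Slc7a2 (-1.66), Ccl5 (-2.78), Traf1 (-1.65), Zfp36l1 (1.38) and Il12a (-1.88). Samhd1, Zfp36l1 and Il12a were chosen after their values were seen.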

How the results depend on the processing

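The GM4 DC count of 1970 probe sets passing at 6 h became 3000, with 1178 higher, under array weights, and ran from 1381 to 1732 over the 6 fits that each left out an array (555 to 691 higher, 826 to 1041 lower). Median centring gave 842 higher and 963 lower. The replicate block changed this count by less than 1.5 times and changed 119 differences between GM4 and GM DC to 206. That count was 215 with the filter, 230 with array weights, 70 with only the groups compared and 54 to 298 without an array. The count between 6 and 20 h was 2212 with array weights and 566 to 1336 without an array. Medians of some lists changed sign: over all alternatives cytokine receptors ran from -0.18 to 0.12, antigen uptake from -0.11 to 0.22, prostaglandin synthesis from -0.23 to 0.29 and DC identity from -0.13 to 0.08. Of the 200 genes compared, signs turned for 4, none of which had passed: Il4ra was -0.00 with array weights and -0.18 to 0.31 without an array, Csf2ra -0.48 to 0.17 without an array, Stat6 -0.02 with array weights and -0.02 to 0.20 without an array, and Ccl5 -0.02 with array weights and -0.07 to 0.21 without an array. Of 182 called genes considered for naming, 152 kept their call in all 16 alternatives. The causes were not tested. Probe sets under a signal of 16 have only a poorly measured level, no detection calls were used, and p-values rest on 2 or 3 arrays a group.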
